A study of Mus musculus with 12 samples.

Results

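The 10 genes described here are 6 inhibitors of cyclin-dependent kinases (Cdkn1a, Cdkn1b, Cdkn1c, Cdkn2a, Cdkn2c and Cdkn2d) and 4 targets of the transcription factor p53 (Mdm2, Ccng1, Phlda3 and Trp53inp1). They were taken by name from the 54532 genes of the count table, and all 10 passed the filter on low counts together with 16675 genes in all. They were followed by RNA sequencing in HSPCs, the haematopoietic stem and progenitor cells that form blood. The 12 libraries formed 4 groups of 3, namely cells of aged mice cultured with uridine, cells of aged mice cultured with vehicle, uncultured cells of aged mice and uncultured cells of young mice. All were labelled wild type from bone marrow. The genotype label reads c57bl/6 WT for the 3 vehicle libraries and then counts upward, from c57bl/7 to c57bl/9 in uridine, from c57bl/10 to c57bl/12 in young and from c57bl/13 to c57bl/15 in uncultured aged libraries, so the strain is uncertain. Neither the ages and sort markers nor the uridine dose and time in culture are given in these sources.

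Cyclin-dependent kinases drive cells from rest into DNA replication and mitosis. The Cip/Kip inhibitors (p21, p27 and p57, from Cdkn1a, Cdkn1b and Cdkn1c) bind complexes of cyclins with several of these kinases, whereas the INK4 inhibitors (from Cdkn2a, Cdkn2c and Cdkn2d) bind the kinases Cdk4 and Cdk6 that act early in G1. Stem cells of the marrow are mostly at rest, p57 and p27 are known for holding them there, and Cdkn2a is known for rising in aged and senescent cells. p53 is activated by DNA damage and other stress, induces Cdkn1a, which halts the cycle, and induces Mdm2, whose protein in turn degrades p53.

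Library totals ran from 16785065 to 19025802 counts. Immunoglobulin genes with Jchain took 21.6 to 21.9% of the counts in uncultured aged libraries and under 1% in every other library (0.540 to 0.924%). Of 12 markers of stem and progenitor cells every marker was detected in each group, with Kit at 274 ± 3.85 CPM in uridine cultures, 262 ± 1.42 in vehicle cultures, 201 ± 3.30 in uncultured aged and 254 ± 4.23 in uncultured young cells (SD, n = 3 each). CPM are counts scaled to a common library size after TMM factors, which were 0.836 in each uncultured aged library and 1.05 to 1.07 in the others. The uridine libraries stood between the vehicle and the young libraries. Over 145 genes whose young level was 10 times the vehicle level or more, the uridine level lay at a median of 0.333 of the way from the vehicle to the young level (0.329 to 0.342 in single uridine libraries), and 135 of these genes were within 0.1 of that median. Whether RNA of young cells entered the uridine libraries was not tested and cannot be told from the counts, so every difference between uridine and vehicle cultures below carries this doubt, and the share is set beside it. No label states that replicates are separate animals or cultures, so p-values here reflect library-to-library spread, which may be technical. In such bulk samples fewer cells of a type and less RNA per cell cannot be told apart.

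Per kilobase of exon, which allows genes to be compared, Ccng1 and Cdkn1a had the highest levels of the 10 in the cultures, and Trp53inp1 in uncultured aged cells. Ccng1 reached 39.2 ± 0.956 CPM per kb with uridine and 50.8 ± 0.957 with vehicle, and Trp53inp1 reached 70.5 ± 1.87 CPM per kb in uncultured aged cells (SD, n = 3). Cdkn1c, Cdkn2a and Phlda3 were the lowest, below 10 CPM per kb in every group. Summed per kilobase, the Cip/Kip inhibitors stood at 50.1 ± 0.223 in uridine cultures, 51.7 ± 0.946 in vehicle cultures, 44.9 ± 1.09 in uncultured aged and 55.8 ± 0.617 CPM per kb in uncultured young cells. Between vehicle cultures and young cells their make-up differed more than their sum. Cdkn1a gave 75.4% ± 0.846 of that sum in vehicle cultures and 50.1% ± 0.529 in young cells, whereas Cdkn1b gave 20.7% ± 0.575 in vehicle cultures and 48.8% ± 0.686 in young cells. In uncultured aged cells, where the sum was lowest, Cdkn1a gave 51.7% ± 1.69 and Cdkn1b 42.2% ± 1.16. Among the INK4 inhibitors Cdkn2d gave the largest share in each group, 51.8 to 61.9%, followed by Cdkn2c with 33.4 to 41.7%. Cdkn2a gave 8.76% ± 0.839 of the INK4 sum in vehicle cultures and 0.357% ± 0.0696 in young cells.

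**Figure D1:**
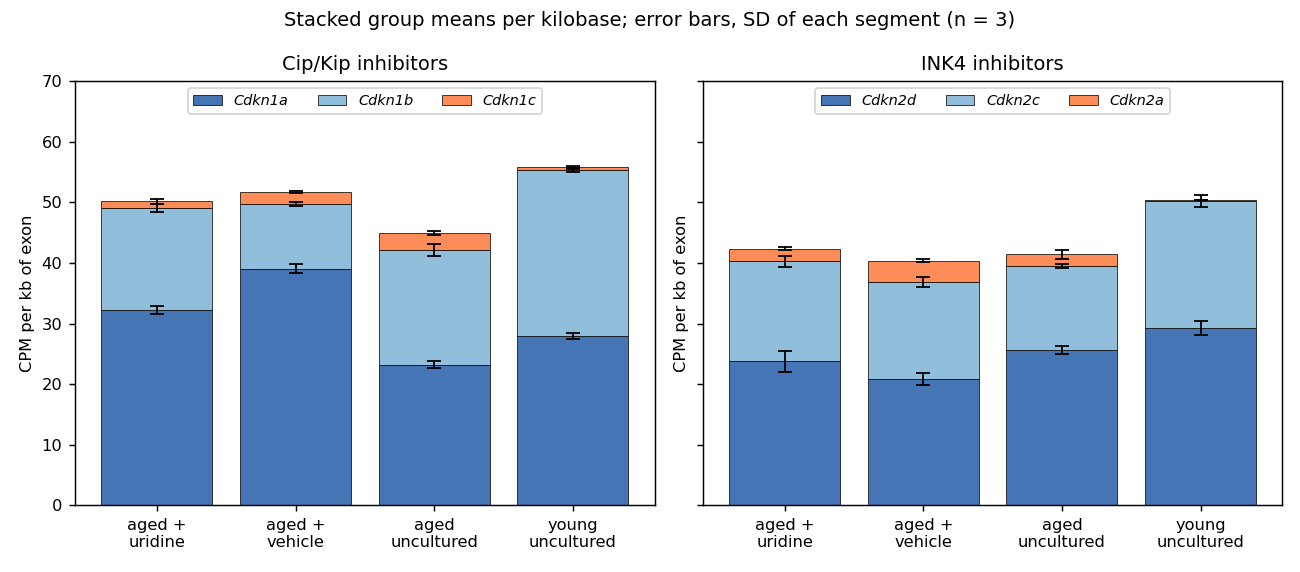
Levels per kilobase of exon (CPM per kb) of the Cip/Kip (left) and INK4 (right) inhibitors, stacked by gene, in the 4 groups. Segments are means of 3 libraries and bars the SD of each segment; Cdkn1a takes 75.4% of the Cip/Kip bar in vehicle cultures, and Cdkn2a is barely visible in young cells.

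Cdkn1a encodes p21, the inhibitor through which p53 halts the cycle (ENSMUSG00000023067, chromosome 17, 29090976 to 29100727, plus strand, GRCm38). It has a pair of start sites in RefSeq, and the window of 300 bases around the upstream start holds matches to the decamer of the p53 consensus that the window of the downstream start lacks. That upstream window (RefSeq, GRCm38.p6, chr17:29090729-29091028, plus strand) is printed because Cdkn1a is the inhibitor p53 is best known to induce, with its 2 matches in capitals.
Cdkn1a upstream start: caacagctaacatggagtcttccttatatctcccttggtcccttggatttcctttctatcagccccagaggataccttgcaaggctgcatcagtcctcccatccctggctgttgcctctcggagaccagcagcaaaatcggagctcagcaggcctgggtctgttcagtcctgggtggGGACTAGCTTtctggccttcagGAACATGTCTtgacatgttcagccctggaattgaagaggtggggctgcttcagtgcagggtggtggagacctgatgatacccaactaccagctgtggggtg
RefSeq gave 11 such windows for 8 of the 10 genes, and 4 of these windows, of 4 genes, held the decamer, against 8.36% of all 32851 windows of this length. Some of the 10 genes were chosen as known p53 targets, so these shares are a description and no test. For Phlda3 the first 20 transcribed bases of the window were not found in a GENCODE transcript, so its start is uncertain. The decamer reads the same on both strands. The other matches, shown with 10 bases on each side and read on the strand of the gene, lie upstream of the starts of Mdm2 (chr10:117710925-117710954, minus strand), Ccng1 (chr11:40755452-40755481, minus strand) and Cdkn2d (chr9:21291292-21291321, minus strand).
Mdm2: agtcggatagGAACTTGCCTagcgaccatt
Ccng1: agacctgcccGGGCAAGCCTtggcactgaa
Cdkn2d: ggcctggggcGGGCTTGCCTcgcccactag
A match is a run of letters and does not show binding, and a window without one says only that these letters are not in it.

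Cdkn1a had 116, 115 and 112 CPM in the uridine libraries, 141, 138 and 136 CPM in the vehicle libraries, 85.0, 81.2 and 81.3 CPM in the uncultured aged libraries and 101, 100.4 and 97.3 CPM in the uncultured young libraries. The 4 groups did not overlap, with vehicle cultures highest, then uridine cultures, then young cells, and uncultured aged cells lowest, and each neighbouring pair in that order was called different (edgeR quasi-likelihood test, adjusted p of 1.36e-07, 2.89e-05 and 3.72e-07). The highest group mean was 1.68 times the lowest. AC167363.2, a gene on the other strand with the annotated biotype TEC, shares 273 bases of exon with Cdkn1a and had 56 to 240 counts per group, against 3623 to 7617 for Cdkn1a.

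Cdkn1b encodes p27, which holds cells at rest and is mostly controlled by degradation (ENSMUSG00000003031, chromosome 6, 134920401 to 134925513, plus strand). It had 76.6, 74.1 and 79.7 CPM in the uridine libraries, 49.4, 47.0 and 49.9 CPM in the vehicle libraries, 85.6, 90.9 and 82.3 CPM in the uncultured aged libraries and 125, 123 and 125 CPM in the uncultured young libraries. Here too the groups did not overlap, but the order was another, with young cells highest and vehicle cultures lowest at a ratio of 2.55. Every neighbouring pair was called different, the closest being uridine cultures against uncultured aged cells (log2 fold change -0.17, SE 0.0458, adjusted p = 0.00163 by edgeR).

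Cdkn1c encodes p57, known for the rest of long-lived stem cells, and is imprinted (ENSMUSG00000037664, chromosome 7, 143458339 to 143461050, minus strand). It was scarce, with 1.38, 2.35 and 2.93 CPM in the uridine libraries, 4.42, 3.63 and 4.24 CPM in the vehicle libraries, 4.86, 6.26 and 5.65 CPM in the uncultured aged libraries and 1.499, 1.15 and 0.875 CPM in the uncultured young libraries, the last from 16 to 30 counts per library. Uncultured aged libraries were the highest, and the lowest uridine library lay within the range of the young libraries. Vehicle cultures and uncultured aged cells did not overlap but were not called different (log2 fold change -0.45, SE 0.227, adjusted p = 0.0774 by edgeR). The antisense gene Gm44732 shares 625 bases of exon with Cdkn1c and had 0 counts in all libraries.

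Cdkn2a encodes p16Ink4a and, from another first exon, p19Arf, which protects p53 from Mdm2 (ENSMUSG00000044303, chromosome 4, 89274471 to 89294653, minus strand). Counts per gene do not separate these transcripts. It had 2.17, 2.66 and 2.44 CPM in the uridine libraries, 4.21, 3.79 and 4.41 CPM in the vehicle libraries, 2.60, 2.92 and 1.31 CPM in the uncultured aged libraries and 0.250, 0.164 and 0.219 CPM in the uncultured young libraries. Young libraries were the lowest, with 3 to 5 counts each and 12 over the group, and the vehicle mean was 19.6 times the young mean, the largest range of the 10 genes. Uridine cultures and uncultured aged cells overlapped and were not called different (adjusted p = 0.795 by edgeR). Its neighbour Cdkn2b, which encodes the INK4 inhibitor p15, was scarcer still, with 27 counts over the uridine group, 49 over the vehicle group, 27 over the uncultured aged group and 3 over the young group. The ratio of uncultured aged to young for Cdkn2b was 11.6, with a counting interval of 3.57 to 59.7 at 95% confidence that covers counting error only.

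Cdkn2c and Cdkn2d encode the INK4 proteins p18 and p19Ink4d and varied little. Cdkn2c (ENSMUSG00000028551, chromosome 4, 109660876 to 109667189, minus strand), which restrains the self-renewal of stem cells and is needed by plasma cells, had 47.1, 43.1 and 42.5 CPM in the uridine libraries, 40.4, 44.8 and 43.2 CPM in the vehicle libraries, 36.9, 36.5 and 38.0 CPM in the uncultured aged libraries and 59.2, 54.0 and 56.1 CPM in the uncultured young libraries. Young cells were the highest and uncultured aged cells the lowest, at a ratio of 1.52, and both cultures overlapped. Cdkn2d (ENSMUSG00000096472, chromosome 9, 21288410 to 21291407, minus strand) had 40.6, 36.0 and 35.8 CPM in the uridine libraries, 34.0, 33.6 and 31.1 CPM in the vehicle libraries, 40.3, 39.3 and 41.4 CPM in the uncultured aged libraries and 46.6, 47.4 and 43.9 CPM in the uncultured young libraries. Its highest and lowest group means, in young cells and vehicle cultures, stood at a ratio of 1.40.

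Mdm2, the ubiquitin ligase that degrades p53 (ENSMUSG00000020184, chromosome 10, 117688875 to 117710758, minus strand), was the flattest of the 10 genes. It had 112, 107 and 107 CPM in the uridine libraries, 117, 106 and 117 CPM in the vehicle libraries, 106, 104 and 109 CPM in the uncultured aged libraries and 108, 102 and 102 CPM in the uncultured young libraries. All groups overlapped, the means ran within a ratio of 1.09, and no neighbouring pair was called different, the log2 fold changes being 0.03 (SE 0.0433) for uncultured aged against young cells and -0.06 (SE 0.0419) for uridine against vehicle cultures. Vehicle cultures, the highest, and young cells, the lowest, were called different by a small amount (log2 fold change 0.12, SE 0.0422, adjusted p = 0.0118 by edgeR), and this call was lost with upper-quartile scaling (0.0526) and without vehicle replicate 1, vehicle replicate 3 or young replicate 3 (adjusted p up to 0.0752).

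Ccng1, which encodes cyclin G1, a cyclin that acts with a phosphatase on Mdm2 (ENSMUSG00000020326, chromosome 11, 40748552 to 40755311, minus strand), separated cultured from uncultured cells. It had 136, 141.5 and 135 CPM in the uridine libraries, 175, 181 and 179 CPM in the vehicle libraries, 54.5, 61.0 and 52.8 CPM in the uncultured aged libraries and 55.7, 55.8 and 55.0 CPM in the uncultured young libraries. Every cultured library was above every uncultured library, and the uncultured groups overlapped. Phlda3, whose product restrains the kinase Akt (ENSMUSG00000041801, chromosome 1, 135766119 to 135769136, plus strand), was also higher in both cultures than in uncultured cells, at a far lower level. It had 6.55, 11.9 and 10.2 CPM in the uridine libraries, 13.4, 13.5 and 14.5 CPM in the vehicle libraries, 1.73, 2.16 and 0.482 CPM in the uncultured aged libraries and 2.55, 1.81 and 1.97 CPM in the uncultured young libraries. Its spread between libraries was wide, with a coefficient of variation of 59.7% in uncultured aged and 28.5% in uridine libraries, and the uncultured groups overlapped.

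Trp53inp1, a p53 target that promotes autophagy and cell death (ENSMUSG00000028211, chromosome 4, 11156431 to 11174379, plus strand), had an order of its own. It had 75.8, 64.9 and 76.0 CPM in the uridine libraries, 84.6, 86.2 and 84.0 CPM in the vehicle libraries, 443, 467 and 460.1 CPM in the uncultured aged libraries and 52.8, 52.6 and 53.2 CPM in the uncultured young libraries. Uncultured aged libraries were far above all others, and the 4 groups did not overlap.

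**Figure D2:**
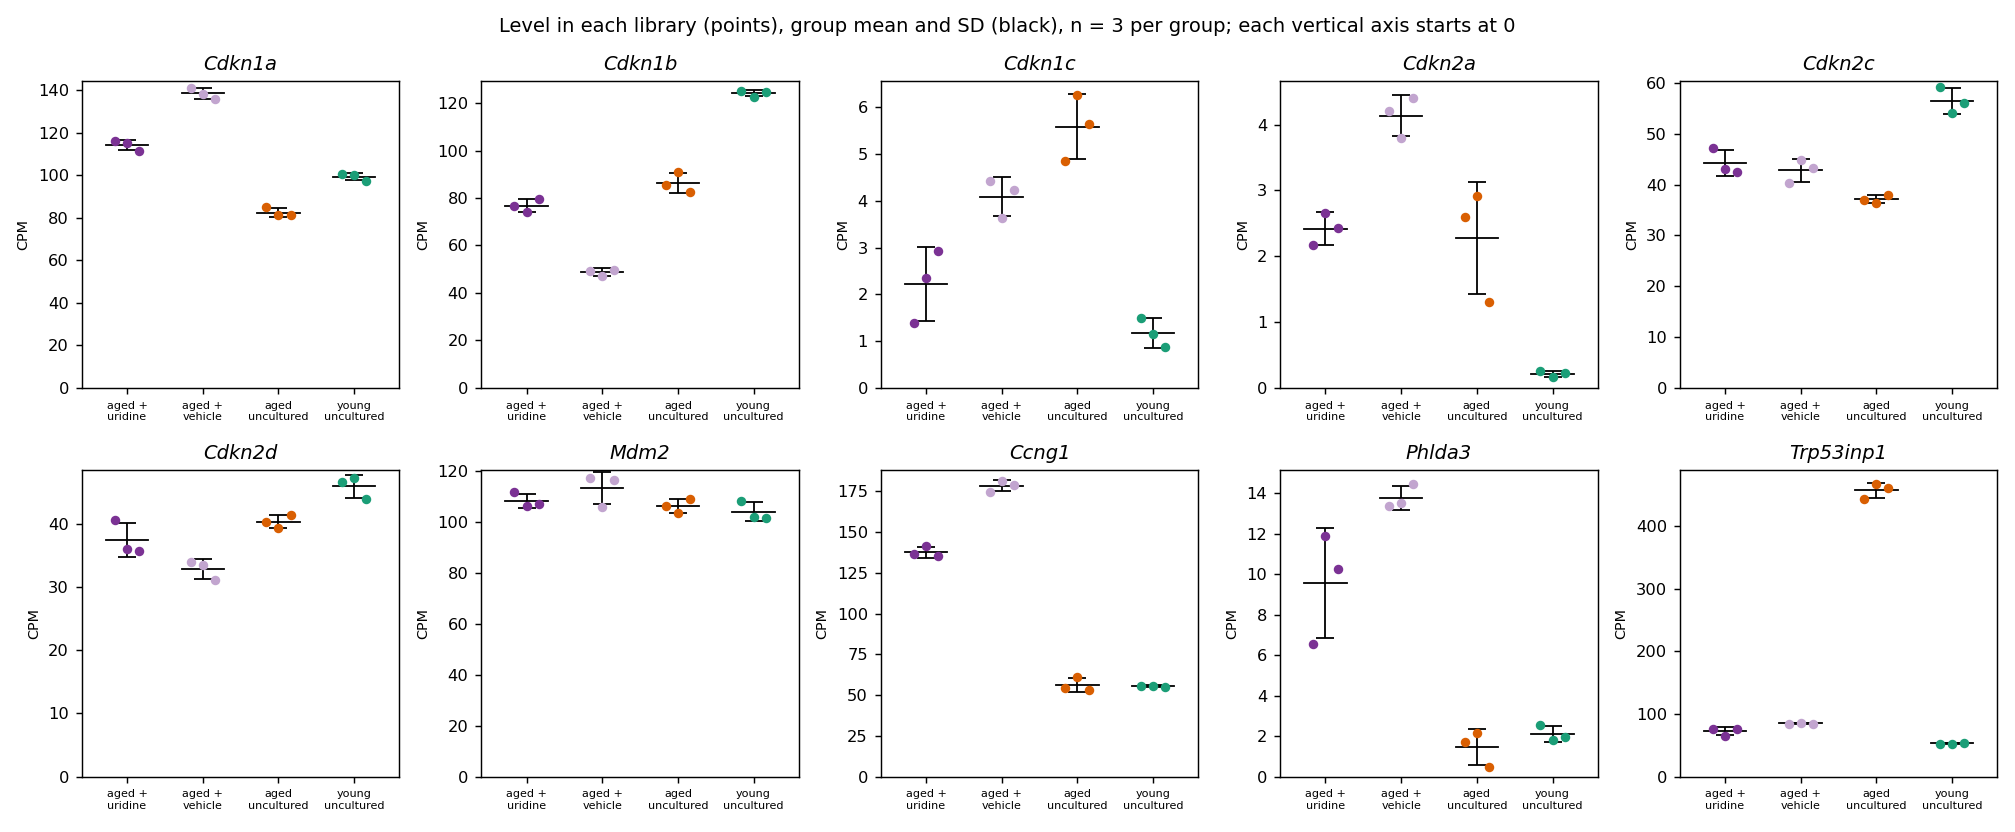
Level of each of the 10 genes in every library, in CPM on axes that start at 0 and differ between panels. Points are libraries and black marks the mean and SD of 3; Mdm2 means lie within a ratio of 1.09, Ccng1 and Phlda3 are higher in both cultures, and Trp53inp1 is high in uncultured aged cells, at 443 to 467 CPM.

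Uncultured cells of aged and of young mice were compared for the effect of age. The inhibitors divided, with the scarce Cdkn1c and Cdkn2a higher in aged cells and the abundant Cdkn1a, Cdkn1b, Cdkn2c and Cdkn2d lower. Of the p53 targets Mdm2, Ccng1, Phlda3 and Trp53inp1, the last alone was called, higher in aged cells, whereas Cdkn1a, which p53 also induces, was lower. In all, 3 of the 10 genes were called higher and 4 lower, against 65.3% of all genes tested that were called in either direction, 33.2% higher and 32.1% lower (edgeR quasi-likelihood test, Benjamini-Hochberg adjusted p under 0.05), so the count of calls was near that of genes at large. The median log2 fold change was -0.09 over the 10 genes and 0.02 over all genes.

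Cdkn2a rose by 3.38 on the log2 scale (SE 0.411, adjusted p = 5.53e-09 by edgeR) and Cdkn1c by 2.24 (SE 0.265, adjusted p = 3.24e-09 by edgeR). Trp53inp1 rose by 3.11 (SE 0.0432, adjusted p = 7.88e-37 by edgeR). Among the genes that fell, Cdkn2c fell by 0.61 and Cdkn1b by 0.53 on the log2 scale, Cdkn1a by 0.27 and Cdkn2d by 0.19. The call of Cdkn2d was lost at adjusted p = 0.0501 without young replicate 2. Phlda3, which was not called at -0.54 (SE 0.315, adjusted p = 0.134 by edgeR), was called lower at -0.92 (adjusted p = 0.0286) without aged replicate 2.

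Other cell types moved in the same comparison. All 9 plasma cell markers were higher in aged cells, their sum running from 25763 to 26004 CPM in aged and from 655 to 667 CPM in young libraries, with Jchain at 23474 ± 124 CPM in aged and 303 ± 0.291 CPM in young cells. Of 12 B cell markers 8 were higher and 4 lower, with sums of 6034 to 6276 CPM in aged and 1012 to 1022 CPM in young libraries. All 10 markers of maturing neutrophils and all 10 erythroid markers were lower, with neutrophil sums of 564 to 606 CPM in aged and 5554 to 5764 CPM in young libraries. All 6 mast cell and basophil markers were lower in aged cells, 7 of 9 T and NK cell markers were higher and 1 lower, and of 7 tested stroma and endothelium markers 4 were lower and 2 higher, with Col1a1 at 0.960 ± 0.201 CPM in aged and 272 ± 8.95 CPM in young cells. Of 5 tested megakaryocyte markers 4 were lower, and of 9 monocyte and macrophage markers 4 were lower and 2 higher. The part of these cells in the levels of the 10 genes was not tested.

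The genes that the inhibitors act on were mostly lower in aged cells. Of 18 tested cyclins, cyclin-dependent kinases and Cdc25 phosphatases 16 were lower, 1 was higher and 1 was not called (median log2 fold change -0.65), among them Ccnd3, cyclin D3 (126 ± 7.02 CPM in aged and 375 ± 9.79 in young cells), and Ccna2, cyclin A2 (94.3 ± 2.31 CPM in aged and 197 ± 3.97 CPM in young cells). All 25 proliferation genes were lower (median -0.88), Mki67 at 367 ± 15.6 CPM in aged and 1195 ± 11.7 CPM in young cells. The retinoblastoma, E2F and DREAM genes, which carry the inhibitors' signal to transcription, gave 13 lower, 1 higher and 3 not called of 17 (median -0.51), with E2f7 and E2f2 lower by 1.68 and 1.58 on the log2 scale in aged cells. Trp53 itself stood at 134 ± 5.20 CPM in aged and 201 ± 6.401 CPM in young cells (log2 fold change -0.58, adjusted p = 4.45e-17 by edgeR), and of 21 tested genes of p53 and its regulators 14 were lower and 5 higher (median -0.36). Other p53 targets had no common direction, with 16 higher, 11 lower and 11 not called of 38 (median 0.13). Zmat3, an RNA-binding protein, rose by 1.34, Plk3, a stress kinase, fell by 1.15, and the iron reductase Steap3 fell by 1.06 on the log2 scale.

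Of 19 Polycomb genes and H3K27 demethylases, which keep Cdkn2a silent or open it, 8 were higher and 9 lower in aged cells (median -0.12). Cbx7, a Polycomb subunit that represses Cdkn2a, stood at 223 ± 5.55 CPM in aged and 23.1 ± 0.782 CPM in young cells, and the H3K27 methyltransferase Ezh2 at 103 ± 6.52 CPM in aged and 218 ± 0.402 CPM in young cells. In the list of turnover and FOXO control of the Cip/Kip proteins, 4 of 13 were higher and 8 lower. Skp2, whose ligase degrades p27, fell by 0.89 on the log2 scale, and Foxo1, a transcription factor known to induce Cdkn1b, rose by 0.98.

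The comparison of vehicle cultures with uncultured aged cells asked what culture itself changes. Ccng1 and Phlda3 were much higher after culture, Cdkn1a and Cdkn2a moderately so and Cdkn2c slightly so. Trp53inp1 was much lower, and Cdkn1b and Cdkn2d were lower. Thus 5 of the 10 genes were called higher and 3 lower, where 70.5% of all genes tested were called in either direction, 35.4% higher and 35.1% lower, again near the share of genes at large. The median log2 fold change was 0.15 over the 10 genes and -0.01 over all genes.

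Phlda3 rose by 3.23 on the log2 scale (SE 0.247, adjusted p = 3.65e-14 by edgeR) and Ccng1 by 1.67 (SE 0.0445, adjusted p = 4.92e-28 by edgeR). Cdkn1a rose by 0.75 (SE 0.0394, adjusted p = 7.92e-19 by edgeR), Cdkn2a by 0.86 (SE 0.270, adjusted p = 0.00510 by edgeR) and Cdkn2c by 0.20. Trp53inp1 fell by 2.43 (SE 0.0410, adjusted p = 2.20e-34 by edgeR), Cdkn1b by 0.82 and Cdkn2d by 0.29 on the log2 scale. Mdm2 differed by 0.09 (SE 0.0431, adjusted p = 0.0565 by edgeR) and Cdkn1c by -0.45, neither of them called. The call of Cdkn2a was lost without aged replicate 3 (log2 fold change 0.58, adjusted p = 0.0517), the aged library with the lowest level, and that of Cdkn2c with upper-quartile scaling (0.14). Mdm2 and Cdkn1c were called under some alternatives.

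Macrophage, megakaryocyte and mast cell markers were mostly higher after culture, and those of B, plasma, T and NK cells, neutrophils, erythroid cells and stroma were mostly lower. Monocyte and macrophage markers summed to 4747 to 4814 CPM in vehicle cultures and 592 to 609 CPM in uncultured aged cells, with 7 of 9 higher, and megakaryocyte markers to 1099 to 1103 CPM in vehicle cultures and 86.0 to 95.6 CPM in uncultured aged cells, with all 5 tested higher. All 9 plasma cell and all 12 B cell markers were lower, the plasma cell sum being 1102 to 1147 CPM in vehicle cultures. The markers Slc4a1 (erythroid), Ly6g (neutrophil) and Col3a1 (stroma) were at 0 counts in vehicle cultures. Over the uncultured aged group they had 241, 18 and 3 counts, so the 0 of Col3a1 says little about stroma. The part of these cells in the levels of the 10 genes was not tested.

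Genes of the cycle were higher after culture. Of 18 cyclins, kinases and Cdc25 phosphatases 16 were higher and 2 lower (median 0.38), with Ccnd1, cyclin D1, at 54.2 ± 0.545 CPM in vehicle cultures and 11.8 ± 1.86 CPM in uncultured aged cells. Of the 25 proliferation genes 24 were higher and 1, the licensing factor Cdt1, was lower (median 0.51). Trp53 rose by 0.97 on the log2 scale (adjusted p = 4.09e-24 by edgeR), and Mdm4, the relative of Mdm2 that also restrains p53, fell by 0.59. The other p53 targets gave 20 higher, 16 lower and 2 not called of 38 (median 0.29). Zmat3 rose by 2.003 and Psrc1, a spindle protein, by 1.76, while Btg2, an antiproliferative gene that is also an early response gene, fell by 2.76 and Plk3 by 2.02 on the log2 scale. Skp2 stood at 40.7 ± 0.678 CPM in vehicle cultures and 14.2 ± 0.695 CPM in uncultured aged cells, and Foxo1 at 9.81 ± 0.571 CPM in vehicle cultures and 60.5 ± 2.54 CPM in uncultured aged cells. Cbx7 fell by 3.68 and the H3K27 demethylase Kdm6b by 2.14 on the log2 scale. The 2 comparisons above share the uncultured aged libraries, so their values are given side by side and not as independent results.

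**Figure D3:**
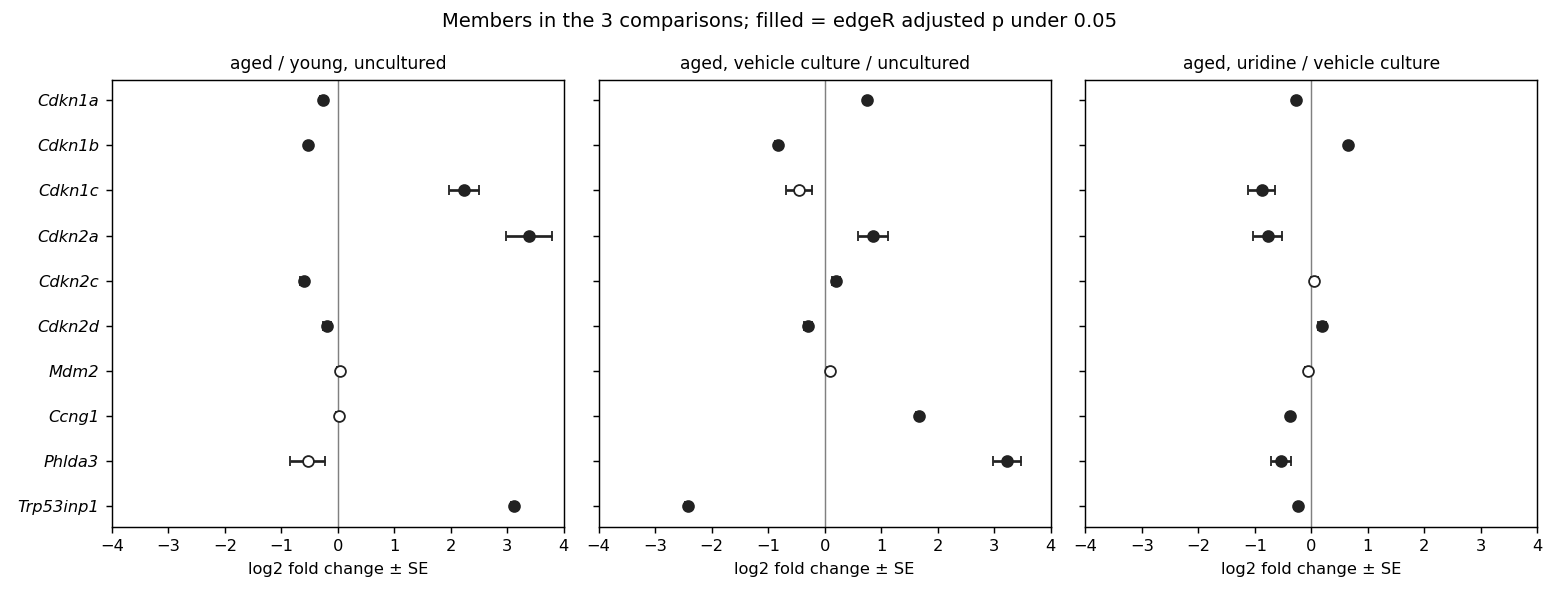
Log2 fold changes with SE (edgeR) of the 10 genes in the 3 comparisons; positive values mean higher in the group named first. Filled points passed an adjusted p of 0.05; Trp53inp1 is at 3.11 with age and at -2.43 with culture, and Mdm2 is unfilled in all panels.

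The comparison of uridine with vehicle cultures asked what uridine changes in cultured aged cells. Cdkn1b and, by a small margin, Cdkn2d were higher with uridine, and Cdkn1a, Cdkn1c, Cdkn2a, Ccng1, Phlda3 and Trp53inp1 were lower. That is 2 genes called higher and 6 lower of 10, where 38.1% of all genes tested were called in either direction, 3342 of 16675 higher and 18.1% lower. The median log2 fold change was -0.26 over the 10 genes and 0.00 over all genes.

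Cdkn1b rose by 0.66 on the log2 scale (SE 0.0476, adjusted p = 6.45e-14 by edgeR) and Cdkn2d by 0.19 (SE 0.0678, adjusted p = 0.0264 by edgeR). Ccng1 fell by 0.37 (SE 0.0394, adjusted p = 8.84e-10 by edgeR), Cdkn1a by 0.28 (SE 0.0371, adjusted p = 1.36e-07 by edgeR) and Trp53inp1 by 0.23 (SE 0.0444, adjusted p = 5.57e-05 by edgeR). The scarcer genes fell by larger but less certain amounts, Cdkn1c by 0.88 (SE 0.243, adjusted p = 0.00375 by edgeR), Cdkn2a by 0.77 (SE 0.258, adjusted p = 0.0169 by edgeR) and Phlda3 by 0.53 (SE 0.179, adjusted p = 0.0178 by edgeR). Without uridine replicate 1 or without vehicle replicate 3 the count of called genes was 5, with Cdkn2a, Cdkn2d and Phlda3 lost, and Cdkn2a was lost without vehicle replicate 1 as well (adjusted p = 0.0507). DESeq2 did not call Phlda3 (adjusted p = 0.240).

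For each gene, the place of the uridine level between vehicle and young was then measured as for the 145 genes above. Those 145 genes were all chosen as higher in young cells. Cdkn1a, Cdkn1c, Cdkn2a, Mdm2, Ccng1, Phlda3 and Trp53inp1 were instead higher in vehicle cultures. The usual place of genes in that direction was not measured, so a distance from 0.333 may not set these genes apart. Ccng1 lay at 0.331 ± 0.0273 of the way (SD over the 3 uridine libraries), Cdkn2d at 0.351 ± 0.207, Phlda3 at 0.362 ± 0.234, Cdkn1b at 0.372 ± 0.0370 and Trp53inp1 at 0.396 ± 0.197, beside the median of 0.333. The level at exactly 0.333 of the way would be 137 CPM for Ccng1, where 138 ± 3.36 CPM was measured, and 73.9 CPM for Cdkn1b, where 76.8 ± 2.79 CPM was measured. Cdkn2a lay at 0.437 ± 0.0630, and Cdkn1a was further along at 0.619 ± 0.0620. Cdkn1c lay at 0.641 ± 0.269, Cdkn2c at 0.107 ± 0.184 and Mdm2 at 0.535 ± 0.310. The distance between vehicle and young levels was short beside the level itself for Cdkn2c (42.8 and 56.5 CPM) and Mdm2 (113 and 104 CPM). It was also short for Cdkn2d (32.9 and 45.9 CPM), so its place near 0.333 is loosely set too. Cdkn1a was at 114 ± 2.43 CPM with uridine, where 0.333 of the way would be 126 CPM.

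**Figure D4:**
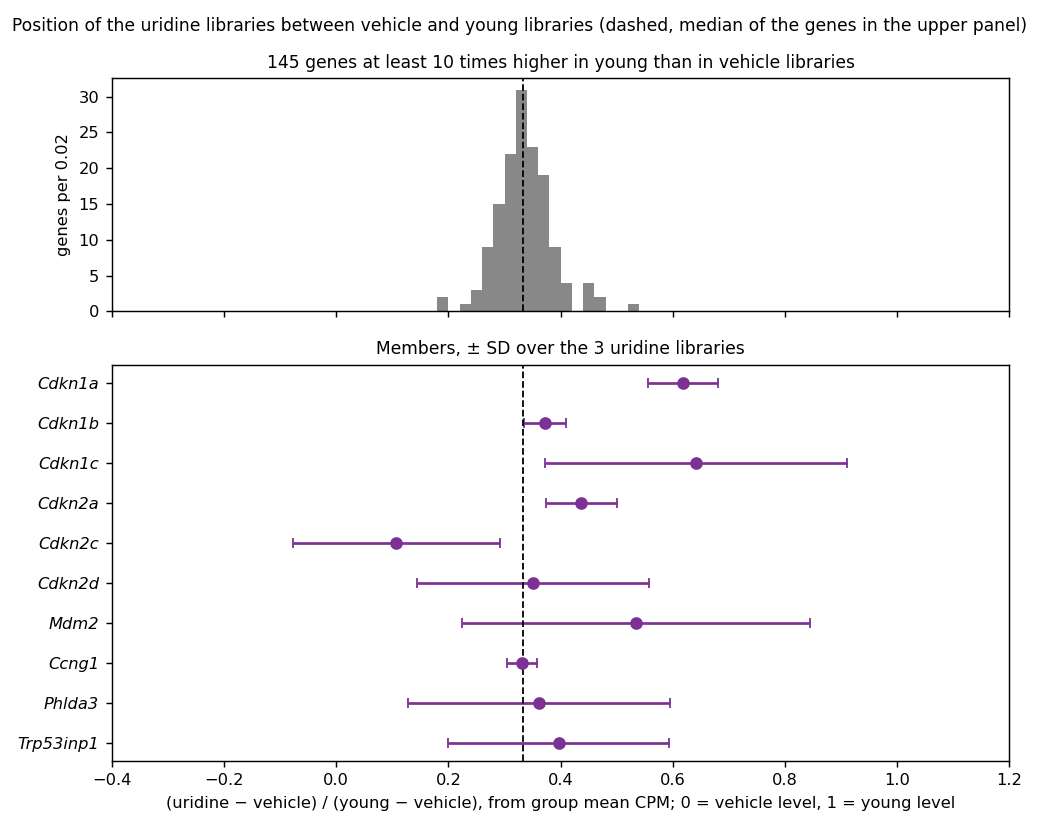
Place of the uridine level on the way from vehicle (0) to young (1), as a fraction of that distance in CPM: above, a histogram of 145 genes whose young level was 10 times the vehicle level or more, in bins of 0.02; below, the 10 genes with the SD over 3 uridine libraries. The dashed line is the median of the upper panel, 0.333; Ccng1 is at 0.331 and Cdkn1a at 0.619.

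When that share of the young level was subtracted from the uridine libraries, 1 of the 10 genes was still called, against 16.4% of the genes tested in that way. The share was estimated from these same libraries, so a gene whose place lay near it must come out near no change. Calls kept or lost after subtraction follow from each gene's place between vehicle and young levels and its spread. They are no separate test of uridine. Cdkn1a kept its direction and its call, with a log2 fold change of -0.20 (SE 0.0391, adjusted p = 0.00102 by edgeR). Cdkn1b was at 0.11 (SE 0.0577, adjusted p = 0.222 by edgeR), Ccng1 at -0.01 (SE 0.0427, adjusted p = 0.911 by edgeR), Trp53inp1 at -0.07, Phlda3 at -0.07, Cdkn2a at -0.24 and Cdkn1c at -0.58, none of them called. Markers of other cell types differed between uridine and vehicle cultures. All 10 erythroid markers and 9 of 10 markers of maturing neutrophils were higher, the neutrophil sum running from 2086 to 2163 CPM with uridine and from 321 to 330 CPM with vehicle, and Col1a1 of stroma stood at 76.7 ± 2.72 CPM with uridine and 0.236 ± 0.0577 CPM with vehicle. Monocyte and macrophage markers summed lower, to 3117 to 3183 CPM with uridine and 4747 to 4814 CPM with vehicle, though C1qa was higher. Megakaryocyte markers also summed lower, to 716 to 726 CPM with uridine and 1099 to 1103 CPM with vehicle. B cell markers summed to 538 to 564 CPM with uridine and 444 to 446 CPM with vehicle. Plasma cell markers summed to 748 to 773 CPM with uridine and 1102 to 1147 CPM with vehicle. Most of that sum was Jchain, at 439 ± 9.91 CPM with uridine and 781 ± 18.1 CPM with vehicle. Sdc1, Xbp1, Derl3 and Ell2 were also lower with uridine, whereas Irf4 and Mzb1 were higher and Prdm1 and Tnfrsf17 were not called. The part of these cells in the levels of the 10 genes was not tested.

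Among related genes, 16 of 25 proliferation genes were higher with uridine and none was lower (median 0.17), with Mki67 at 862 ± 5.43 CPM with uridine and 625 ± 9.16 CPM with vehicle. The cyclins, kinases and Cdc25 phosphatases gave 5 higher, 2 lower and 11 not called of 18, and Trp53 fell by 0.15 on the log2 scale (adjusted p = 3.90e-04 by edgeR). After subtraction of the young share, 2 proliferation genes were higher and 4 lower, and Trp53 was at -0.05 (adjusted p = 0.350). The other p53 targets gave 16 lower, 8 higher and 14 not called of 38 (median -0.13), and 10 lower and 1 higher after subtraction (median -0.08). Gdf15, a secreted stress factor, fell by 0.87 with uridine and was still lower by subtraction (log2 fold change -0.81, adjusted p = 9.79e-04). Fas, a death receptor, fell by 0.89 and was at -0.44 (adjusted p = 0.0565) after subtraction. Plk3 rose by 1.999 and stayed higher at 0.57 (adjusted p = 0.00293), whereas Btg2 rose by 1.15 with uridine and was lower, at -0.54 (adjusted p = 3.37e-04), after subtraction. The Polycomb and demethylase list gave 8 higher and 1 lower of 19, Kdm6b leading with a rise of 1.52, and 4 higher and 0 lower after subtraction, Kdm6b then at 0.73 (adjusted p = 1.52e-08). The list of Cip/Kip turnover gave 5 higher and 1 lower of 13, Skp2 falling by 0.23 on the log2 scale, and 3 higher and 0 lower after subtraction, Skp2 then at -0.08 (adjusted p = 0.539) and not called. For the cyclins, kinases and Cdc25 phosphatases subtraction left 2 higher and 3 lower, and Mki67 was at 0.14 (adjusted p = 9.15e-04). For these related genes too, calls after subtraction follow from the place between vehicle and young levels and are no separate test of uridine.

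**Figure D5:**
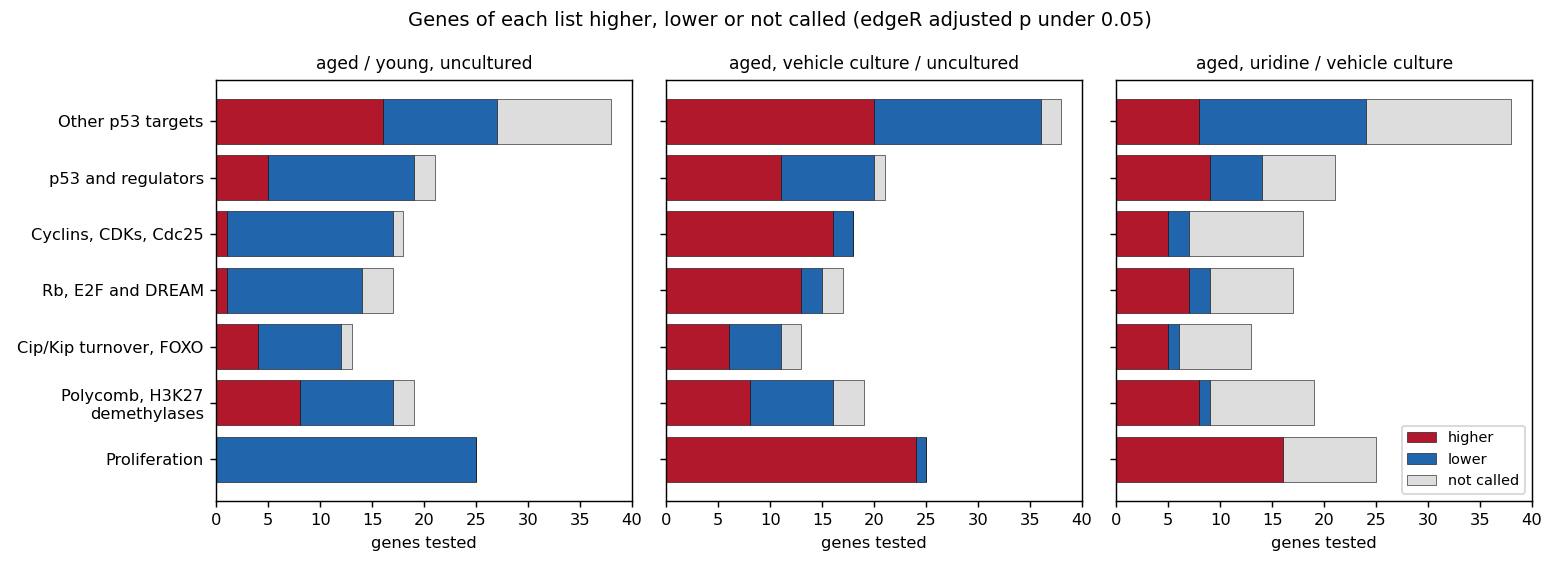
Number of genes tested in each list that were higher, lower or not called (edgeR adjusted p under 0.05), in the 3 comparisons; the group named first in each panel title is the one that is higher or lower. All 25 proliferation genes are lower with age and 24 are higher with culture, while the other p53 targets move both ways in each panel.

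The 10 genes did not share a profile over the 4 groups. Likeness was measured as the root mean square difference of the 4 group means of log2 CPM, each centred on its own mean, as a description. Within the 10, Cdkn2c and Cdkn2d were the most alike, at 0.190. Of 10379 other protein-coding genes with at least 5 CPM, only 10 lay within 0.2 of Trp53inp1 and 32 within 0.2 of Phlda3, against 139 for Ccng1, 149 for Cdkn1b and 4383 for Mdm2. Nearest to Trp53inp1 were Gm8369 (0.0357), Reln (0.0859) and Dennd5b (0.113), which stood at 19.4, 25.8 and 113 CPM in uncultured aged cells and at 2.17, 2.44 and 12.2 CPM in young cells. Nearest to Phlda3 were F2r (0.0287), Plxna1 (0.0640) and Gucy1a1 (0.0887). Ccng1 was most like Tmem140 (0.0185), Insig1 (0.0185) and Dhcr7 (0.0392), Insig1 standing at 138 CPM with uridine, 178 CPM with vehicle, 56.1 CPM in uncultured aged and 53.9 CPM in young cells. Cdkn1b was most like Cnnm2 (0.0345), Irf8 (0.0373) and Hypk (0.0374). Cdkn1a was closest to Tspan3, Riox2 and Cnot4, Cdkn2c to Rhno1, Cdca8 and Ccnb2, Cdkn2d to Ddx39, Scap and Eif5, and Mdm2 to Nifk, Psmc5 and Sgsm3, but these profiles are shallow and 1955 to 4383 genes lay within 0.2 of each.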

How the data were processed

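Polyadenylated RNA was sequenced in read pairs of 150 bp, per the labels' protocols, and HISAT2 2.0.5 with mm10 is named in the submitters' processing notes. The authors deposited raw counts per gene; no source used here names the counter, the annotation behind it or whether strand was used, so whether overlapping genes on opposite strands share reads is unknown. Of 54532 Ensembl IDs 54495 matched GENCODE M21 (GRCm38), which gave symbols and exon lengths. Skp1, of the turnover list, had no row under that symbol.

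Counts were filtered with filterByExpr and scaled by TMM. All 12 libraries were fitted with 1 mean per group in edgeR 4.0.16 with its quasi-likelihood test (residual df 8, common biological coefficient of variation 0.0438), and p-values were adjusted by Benjamini-Hochberg over 16675 genes. Alternatives were DESeq2 1.42.0, limma 3.58.1 voom, other scalings and filters, a replicate block, leaving out immunoglobulin genes, leaving out each library, and subtraction of the young-like share from the uridine libraries. Levels are means ± SD of 3 libraries. The function that ran edgeR was tested on simulated counts. Within groups, library pairs differed by more than counting noise (chi-square per degree of freedom 2.27 to 3.94).

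Alternatives for the remaining group pairs were chosen after seeing the data. The members and lists were chosen with earlier results of these data known. From each list, up to 2 called genes per direction and comparison with the largest change and at least 5 CPM were named, and Cdkn2b, Trp53 and Mdm4 besides; of the markers, those at 0 counts and the leading ones. Col1a1, Jchain and Kit were named after their values were seen.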

Additional observations from a re-analysis of the deposited data

How the results depend on the processing

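With 1 library left out at a time, the number of the 10 genes called was 5 to 8 in uridine against vehicle cultures, 6 to 8 in uncultured aged against young cells and 8 to 9 in vehicle cultures against uncultured aged cells. The log2 fold change in uncultured aged against young cells ran from -0.22 to -0.17 for Cdkn2d and from -0.92 to -0.12 for Phlda3. In uridine against vehicle cultures it ran from -0.84 to -0.70 for Cdkn2a, from 0.12 to 0.22 for Cdkn2d and from -0.71 to -0.32 for Phlda3. In vehicle cultures against uncultured aged cells it ran from 0.58 to 1.08 for Cdkn2a and from 0.0698 to 0.146 for Mdm2, which was called in 6 of these 12 fits, with adjusted p by edgeR from 0.00585 to 0.209 over all 12.

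Among other alternatives, in uridine against vehicle cultures Phlda3 was not called by DESeq2 (-0.55), and Cdkn2d was not called with DESeq2 size factors (0.17) or with no filter on low counts (0.18). Subtraction of the young-like share left 1 gene called, with Cdkn1b at 0.11, Cdkn1c at -0.58, Cdkn2a at -0.24, Ccng1 at -0.0103, Phlda3 at -0.0685 and Trp53inp1 at -0.0657. Cdkn2d was then at -2e-04, far inside its SE of 0.0809, so no direction can be given. The values after subtraction follow from each gene's place between vehicle and young levels and are no separate test of uridine. In vehicle cultures against uncultured aged cells, upper-quartile scaling called Cdkn1c (-0.51) and not Cdkn2c (0.14), the fit of only the 6 libraries compared called Cdkn1c (-0.46), and the fit with no filter called Mdm2 (0.12). The median position of the uridine libraries was 0.324 with DESeq2 size factors. The cause of these changes was not tested.

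No pairing by replicate number was seen, as deviations of the 18 same-numbered pairs correlated at -0.0525 to 0.0212. A pairing with little effect on the counts would look the same. A fit with the replicate block called 8 of the 10 genes in uridine against vehicle cultures, 7 in uncultured aged against young cells and 9 in vehicle cultures against uncultured aged cells, where Mdm2 was called at 0.091 (adjusted p = 0.0467 by edgeR). Counts in single digits per library limit Cdkn2a and Cdkn2b in young cells.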
